A study of Homo sapiens with 6 samples.

Results

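The data describe 8 tetraspanin genes, CD9, CD63, CD81, CD82, CD151, TSPAN3, TSPAN4 and TSPAN14, in HMC3, an established line of human microglia immortalised with the SV40 large T antigen. They were chosen by gene symbol, as a group of tetraspanins known from vesicles and cell membranes, and all 8 were found among the 27469 genes of the count table. RNA was read by 3' sequencing in 3 Control libraries, from HMC3 without the cytokine, and in 3 IL-33 libraries, from HMC3 given interleukin-33 for 24 h. The libraries ranged in depth from 5739947 to 10217529 counts. Separate cultures are not mentioned in the labels, and the p-values may therefore reflect technical spread alone.

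Tetraspanins are small proteins that cross the membrane with 4 helices and carry a large extracellular loop with a conserved cysteine motif. They bind each other, integrins, immunoglobulin proteins and proteases, and gather them into patches of the membrane. CD63, CD81 and CD9 are the proteins by which exosomes and other extracellular vesicles are usually recognised. CD63 cycles between late endosomes, lysosomes and the cell surface, while CD9 and CD81 are mostly at the surface. In microglia, CD9 and CD63 are among the genes known to be high in the cells around amyloid plaques.

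The 8 genes are protein-coding and lie on 4 chromosomes of GRCh38 by GENCODE. Chromosome 11 holds CD151 (832843 to 839831), TSPAN4 (842808 to 867116), CD81 (2376177 to 2397419) and CD82 (44564427 to 44620363), with CD151 and TSPAN4 as close neighbours on the plus strand. Chromosome 12 holds CD9 (6199715 to 6238271) and CD63 (55725323 to 55729707). TSPAN3 lies on chromosome 15 (77041404 to 77083984) and TSPAN14 on chromosome 10 (80454166 to 80533123). CD151 overlaps POLR2L, a subunit of the RNA polymerases, on the opposite strand by 2476 bases at its 3' side. POLR2L had 28426 counts over the 6 libraries, and since the strand setting of the counting is not given in the sources used here, reads of the 2 genes may be mixed and cannot be separated. CD81 overlaps CD81-AS1 on the opposite strand, which had 0 counts in the table.

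CD9 and TSPAN4 had some of the most unlike profiles across the 6 libraries of any pair of the 8 (a root mean square difference of 0.92 in log2 level, described with the values), and the bases before their starts are shown for that reason. Pairs with CD9 were the most unlike mainly through its low value in 1 library, Control 3. The RefSeq promoter windows used here, on GRCh38.p14, covered 5 of the 8 genes, CD9, CD63, CD82, TSPAN4 and TSPAN14. For each gene shown, the 250 bases are those before the RefSeq start that coincides with the start of a GENCODE principal transcript, on the plus strand, at chr12:6200150-6200399 for CD9 and chr11:842691-842940 for TSPAN4. Capitals mark the letters GGGCGG on either strand, the GC box bound by Sp1, and overlapping matches were counted.
CD9: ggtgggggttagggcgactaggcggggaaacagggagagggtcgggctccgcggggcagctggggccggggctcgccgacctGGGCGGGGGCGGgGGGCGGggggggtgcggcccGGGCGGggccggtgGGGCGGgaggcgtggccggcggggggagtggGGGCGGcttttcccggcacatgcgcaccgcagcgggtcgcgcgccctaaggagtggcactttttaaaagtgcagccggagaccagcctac
TSPAN4: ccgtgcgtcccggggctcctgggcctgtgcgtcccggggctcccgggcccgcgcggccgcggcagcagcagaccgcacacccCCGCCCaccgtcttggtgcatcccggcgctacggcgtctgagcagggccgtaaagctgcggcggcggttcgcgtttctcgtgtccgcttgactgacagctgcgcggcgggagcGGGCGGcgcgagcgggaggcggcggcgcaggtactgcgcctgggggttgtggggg
The CD9 window held 6 matches and the TSPAN4 window 2. Of 35116 RefSeq windows of this length, 42.6% held at least 1 and 13.9% held 3 or more. Neither window held TATAAA on either strand, which 10.7% of the windows did, and 76.8% of the bases of each were G or C against a median of 58.0%. These are descriptions of the letters: RefSeq lists 4 starts for CD9 and 5 for TSPAN4, and 3' tags do not show which start was used. Windows at the other starts held 0 to 3 matches for CD9 and 0 to 4 for TSPAN4, so the contrast depends on the start chosen.

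Markers of cell types were summed in each library. Of 11 microglia markers, 7 had 0 counts in all libraries, among them P2RY12, TMEM119, CX3CR1, SPI1, TYROBP and ITGAM, 8 had at most 3 counts in every library, and the list summed to at most 2.90 CPM in Control (reads per 1e6, on library sizes adjusted by TMM) and to 1.17 to 1.65 CPM with IL-33. The transcripts that define the labelled cell type were therefore at or near the detection limit. The 8 mesenchymal markers summed to 5567 to 6599 CPM in the Controls, and to 5814 to 6389 CPM under IL-33. Most of this was FN1 and VIM, and COL3A1 and ACTA2 were at 0. Summed astrocyte and endothelial markers stayed under 3 CPM in every library, neuron markers lay between 23.7 and 38.0 CPM (mostly TUBB3) and epithelial markers between 594 and 731 CPM (mostly KRT18). Control 3, which was also the shallowest, was unlike the rest: on a first principal component that held 35.4% of the variance it lay at 55.0, against -18.0 to 0.86 for the other 5. Fold changes of the genes named are therefore given with all 6 libraries and again without Control 3.

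CD63 was the leading tetraspanin transcript of these cells, and the group means of the 8 fell in the same order in Control and with IL-33, other than CD82 and CD9, which changed places (41.5 against 34.2 CPM in the Controls, 40.9 against 42.1 CPM under IL-33). Without Control 3 the Control means were 43.5 CPM for CD82 and 46.4 CPM for CD9, and the order was the same in both groups. A 3' tag count does not grow with transcript length, so CPM was used to set genes side by side. Other differences between genes, such as GC content or the overlap of CD151 with POLR2L, were not corrected for. Over the 6 libraries CD63 measured 1114 ± 86.2 CPM (SD, n = 6), which made it the 103rd most abundant of 17264 detected genes. CD151, a partner of laminin-binding integrins, followed with 360 ± 46.6 CPM and CD81, a surface tetraspanin best known as part of the B-cell co-receptor and as a receptor of hepatitis C virus, with 287 ± 29.4 CPM. TSPAN14, which guides the protease ADAM10, measured 107 ± 7.76 CPM, TSPAN3 90.5 ± 5.99 CPM, and TSPAN4, which builds migrasomes (vesicles left on the trails of migrating cells), 73.8 ± 8.24 CPM. CD82, known as a suppressor of metastasis, had 41.2 ± 3.31 CPM and CD9 38.1 ± 14.5 CPM. The ranges over the 6 libraries were apart between CD63 and CD151, between CD81 and TSPAN14 and between TSPAN4 and CD82. Neighbours in the order that overlapped were CD151 and CD81, TSPAN14 and TSPAN3, TSPAN3 and TSPAN4, and CD82 and CD9.

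**Figure D1:**
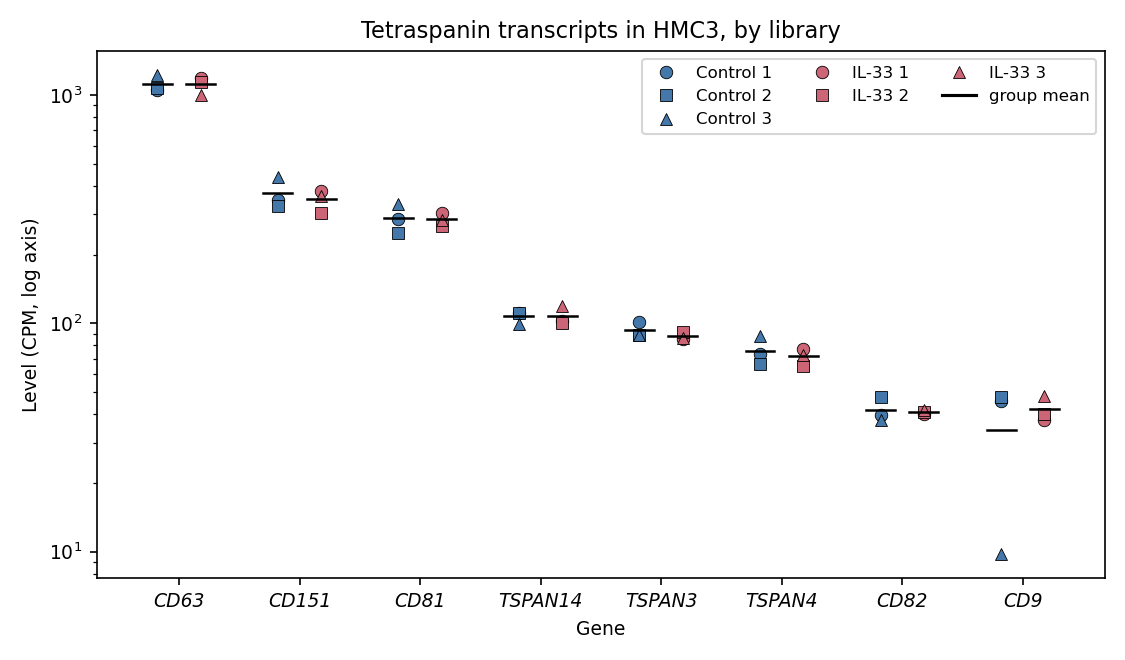
Level of each of the 8 tetraspanin transcripts (CPM, log axis) in each of the 6 libraries, Control in blue and IL-33 in red, with black bars for the group means. The groups overlap in all 8 genes, and CD9 in Control 3, at 9.77 CPM, is the one point far from the rest of its gene.

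Control and IL-33 libraries were compared to ask whether these transcripts differed after 24 h of the cytokine. The vehicle and harvest time of the Control are not given in the labels, so their part cannot be told apart from that of IL-33. Since RNA came from whole cultures, fewer cells that express a gene and less of its RNA per cell cannot be told apart. None of the 8 passed the quasi-likelihood test of edgeR, adjusted by Benjamini and Hochberg's method over all 12125 genes tested, and each had an adjusted p of 0.999. In that comparison 0% of all genes tested passed, 0 of 12125, with 1 by DESeq2 and 0 by limma-voom. An unadjusted p under 0.05 was found for 295 genes, 2.43%, and for 0 of the 8. None of the 8 passed either with DESeq2, without the low-count filter or without Control 3, where 0.00825%, 0.0174% and 0.0476% of all genes tested passed. All 8 passed the filter on low counts. In 0 of the 8 did the values of one group all lie beyond those of the other, where 8.06% of all genes tested separated in that way. The log2 fold change was positive in 2 of the 8, with -0.02 as their median, beside 48.9% and -0.01 over all genes tested. Without Control 3 it was positive in 4 of the 8 with a median of -0.01, and again 0 of the 8 separated, beside 22.1% of all genes in that smaller comparison.

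CD63 had 1053, 1072 and 1226 CPM in the Control libraries and 1190.2, 1140.3 and 1002 CPM in the IL-33 libraries. The highest value was a Control and the lowest an IL-33 library, with the others mixed between them. Its log2 fold change (IL-33 over Control) was -0.01 ± 0.10 (SE), with a 95% interval from -0.21 to 0.20, which corresponds to a fold between 0.863 and 1.15, and without Control 3 it was 0.06 ± 0.07. CD81 had 286, 249 and 333 CPM in the Controls, against 305, 268 and 282 CPM under IL-33, so that the 3 IL-33 values lay inside the range of Control. Its log2 fold change was -0.02 ± 0.11, with an interval from -0.25 to 0.21, and 0.09 ± 0.08 without Control 3.

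CD9, the other of the usual vesicle markers, had 45.5 and 47.4 CPM in Controls 1 and 2, 9.77 CPM in Control 3, and 37.8, 40.1 and 48.2 CPM with IL-33. Apart from Control 3 the 5 libraries covered a narrow band, and both groups lay in it. The log2 fold change was 0.27 ± 0.58, with an interval from -1.23 to 1.78 that spans folds from 0.426 to 3.42. Without Control 3 it turned to -0.14 ± 0.15, with an interval from -0.45 to 0.16 and an edgeR adjusted p of 0.941. The sign and the width of the CD9 result thus came from 1 library.

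CD151 had 348, 327 and 438 CPM in the Controls, against 381, 304 and 359 CPM under IL-33, with Control 3 the highest and IL-33 2 the lowest. Its log2 fold change was -0.09 ± 0.12 (interval -0.33 to 0.15), and 0.04 ± 0.08 without Control 3. POLR2L, which overlaps it, had 528, 507 and 637 CPM in the Controls, against 582, 521 and 539 CPM under IL-33, again highest in Control 3, and the part of POLR2L reads in the CD151 count was not tested. CD82 had 39.6, 47.4 and 37.6 CPM in the Controls, against 40.1, 41.0 and 41.7 CPM under IL-33. The 3 IL-33 values of CD82 sat close together inside the Control range, and the log2 fold change was -0.02 ± 0.15 (interval -0.35 to 0.30), or -0.09 ± 0.16 without Control 3.

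TSPAN4, next to CD151 on chromosome 11, had 73.7, 66.4 and 87.8 CPM in the Controls, against 77.5, 65.2 and 72.4 CPM under IL-33. As for CD151, Control 3 was highest and IL-33 2 lowest, and the log2 fold change was -0.08 ± 0.13 (interval -0.36 to 0.20), or 0.03 ± 0.13 without Control 3. TSPAN3, a widely expressed tetraspanin that binds claudin-11, had 102, 89.2 and 89.2 CPM in the Controls, against 85.3, 91.8 and 85.8 CPM under IL-33. Its log2 fold change of -0.09 ± 0.12 (interval -0.34 to 0.15) was below 0 with each library left out, from -0.13 to -0.03 (-0.12 ± 0.11 without Control 3), and did not pass. TSPAN14 had 111, 111 and 99.5 CPM in the Controls, against 103, 101 and 119 CPM under IL-33, with a log2 fold change of 0.00 ± 0.12 (interval -0.24 to 0.24), and -0.05 ± 0.10 without Control 3.

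The intervals show how closely these libraries bound a change, and like the p-values they may reflect technical spread alone. For 7 of the 8 genes, all but CD9, the 95% interval lay within -0.5 to 0.5 on the log2 scale. The same held for 39.8% of all genes tested and, at 10 CPM or more, for 58% of 8331 genes. Without Control 3 it held for all 8, CD9 included, and for 40.1% of all genes tested. Changes of the 7 beyond those bounds lie outside the intervals, while smaller ones are not resolved with 3 libraries a group. The p-values that missed the threshold do not show that the groups were equal.

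**Figure D2:**
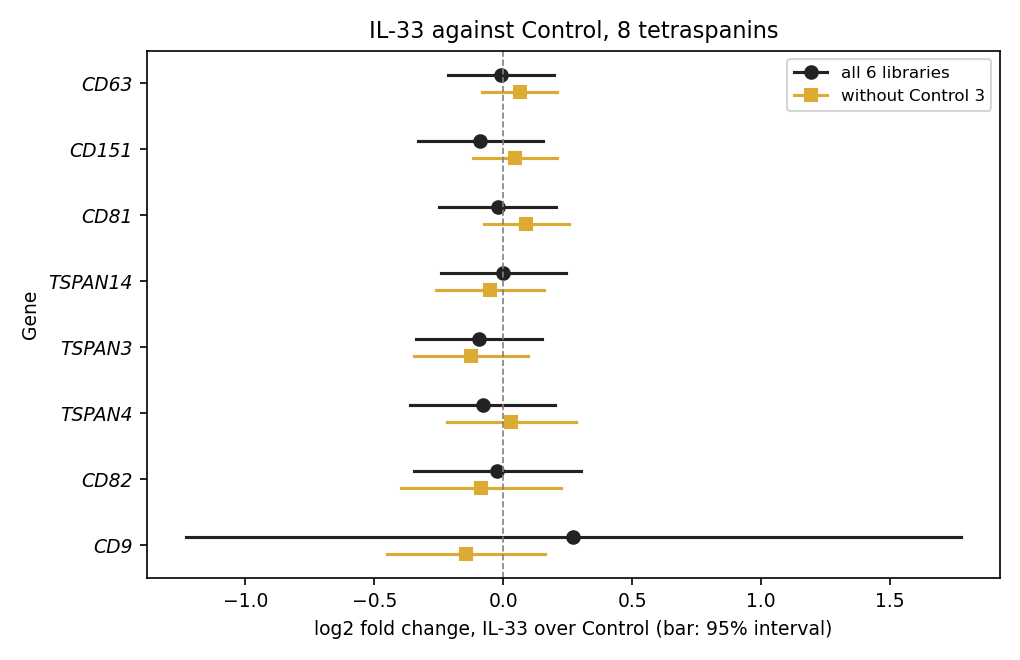
Log2 fold change of IL-33 over Control for the 8 tetraspanins with 95% intervals, from the fit to all 6 libraries (black circles) and to 5 libraries without Control 3 (yellow squares). All intervals hold 0, and that of CD9 runs from -1.23 to 1.78 with all libraries and from -0.45 to 0.16 without Control 3.

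The makeup of the tetraspanin pool, which does not depend on how libraries are scaled, differed between groups by less than the spread within them. CD63 supplied 51.1%, 53.4% and 52.8% of the summed counts of the 8 genes in the Controls, against 53.6%, 55.6% and 49.8% under IL-33, so that the IL-33 values spanned the Control values on both sides. Its mean share was 52.4% ± 1.17 (SD, n = 3) in Control and 53.0% ± 2.93 with IL-33. CD151 supplied 17.3% ± 1.36 and 16.6% ± 1.59, and CD81 13.5% ± 1.04 and 13.6% ± 0.498. The largest spread relative to its size was that of CD9, with 2.21%, 2.36% and 0.421% in the Controls, against 1.70%, 1.96% and 2.40% under IL-33. A two-sided exact permutation test over the 6 libraries gave p between 0.6 and 1 for the 8 shares, all with an adjusted value of 1, where 3 against 3 allows no less than 0.1. Together the 8 genes took 2129 ± 167 CPM in the Controls, and 2094 ± 111 CPM under IL-33, and between 85.8% and 86.7% of all tetraspanin counts in each library.

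CD9 in Control 3 was far below what counting error covers. The 54 reads of Control 3 correspond to 9.41 per 1e6 of its total counts, with an exact (Clopper-Pearson) 95% interval from 7.07 to 12.3. In the other 5 libraries the counts ran from 355 to 458 and the lowest bound was 33.4 per 1e6, in IL-33 1. The mean CPM of the other 5 libraries was 4.48 times that of Control 3. On the log2 scale (prior count 2) the difference was -2.13, which placed CD9 19th from the lowest of the 8331 genes at 10 CPM or more. Of these genes, 189 were lower in Control 3 by 1 or more on that scale and 4 were higher by as much, and 26 were lower by 2 or more.

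The other 7 genes moved far less in Control 3, and not in one direction. CD63, CD81, CD151 and TSPAN4 were higher there than in any of the other 5 libraries, by 0.17, 0.26, 0.35 and 0.31 on the log2 scale against their mean. CD82 and TSPAN14 were lower there than in any other library, by -0.15 and -0.13, and TSPAN3 lay within, at -0.02. Control 3 was the lowest of the 6 libraries in 27.3% of genes at 10 CPM or more and the highest in 30.1%, so extreme values in it were common. GC content moved with these differences: of genes at 56.7% transcript GC or more, 46.7% were highest in Control 3 and 14.6% lowest, and of genes at 42.0% or less, 14.9% and 38.8%. CD151, CD81 and TSPAN4, with 63.1%, 62.7% and 64.1% GC, were above the first of these bounds, and so was CD82 with 59.0%, which was lowest there. CD63 had 54.7%, TSPAN14 50.5%, TSPAN3 48.0% and CD9 47.8%. By transcript length, 37.7% of genes at 344 to 2073 bases were highest in Control 3 and 26.5% lowest. Of genes at 5099 bases or more, 23.7% were highest and 28.6% lowest. CD63, CD81, CD151 and TSPAN4 were among the shorter, at 1233, 1520, 1658 and 1462 bases. So was CD9, at 1566 bases, which was lower there than in any other library. The part of GC content, transcript length or depth in these values was not tested.

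**Figure D3:**
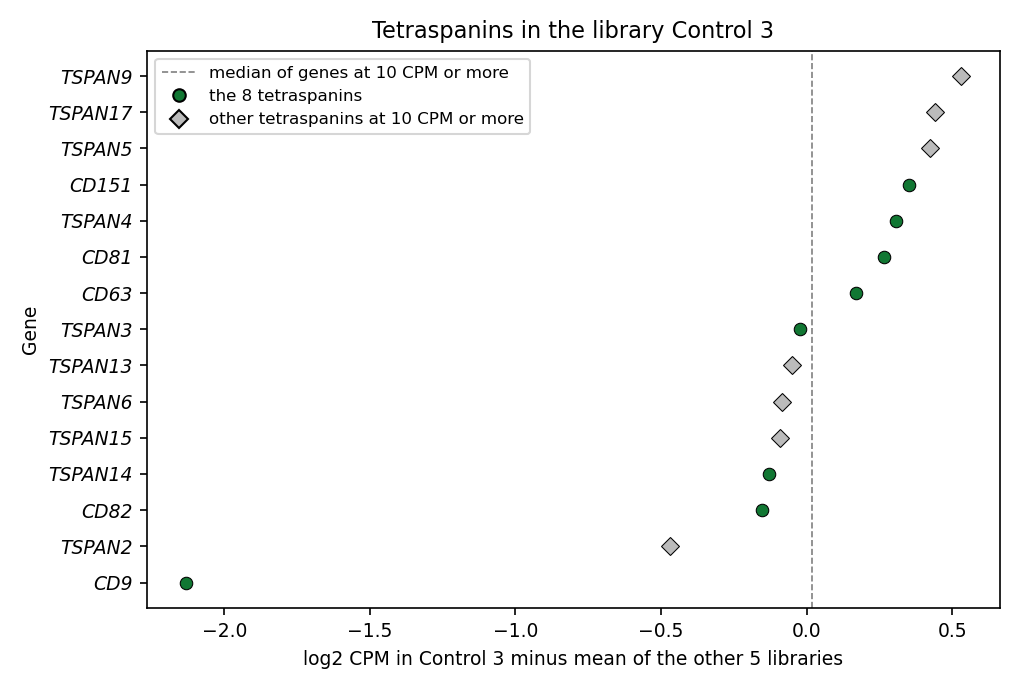
Log2 CPM in Control 3 minus the mean of the other 5 libraries, for the 8 tetraspanins (green circles) and the 7 other tetraspanins at 10 CPM or more (grey diamonds), with the median of the 8331 genes at 10 CPM or more as a dashed line at 0.02. CD9 lies at -2.13, and the other 14 genes lie between -0.47 and 0.53.

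Control 3 dominates the pattern of CD9, so the genes chosen as most like it had to share its low value there, and their values are a description of that choice. Likeness was the root mean square difference of log2 CPM after each gene was centred on its own mean, over 6 libraries and among genes at 10 CPM or more. The closest was TMSB4X, thymosin beta 4, which binds actin monomers, at a distance of 0.03 against a median of 0.83 over all genes compared. It had 304 and 308 CPM in Controls 1 and 2, 64.6 CPM in Control 3 and 243, 260 and 303 CPM with IL-33. TSC22D4, a gene of the TSC22 family, followed at 0.06, with 22.8 and 22.0 CPM, then 4.34 CPM in Control 3, and 17.6, 17.5 and 22.8 CPM with IL-33. The noncoding RNA LINC00998 came next at 0.13, with 28.4, 30.2 and 6.88 CPM in the Controls, against 20.5, 22.9 and 27.6 CPM under IL-33. None of these passed the test, at an adjusted p of 0.999 each by edgeR.

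**Figure D4:**
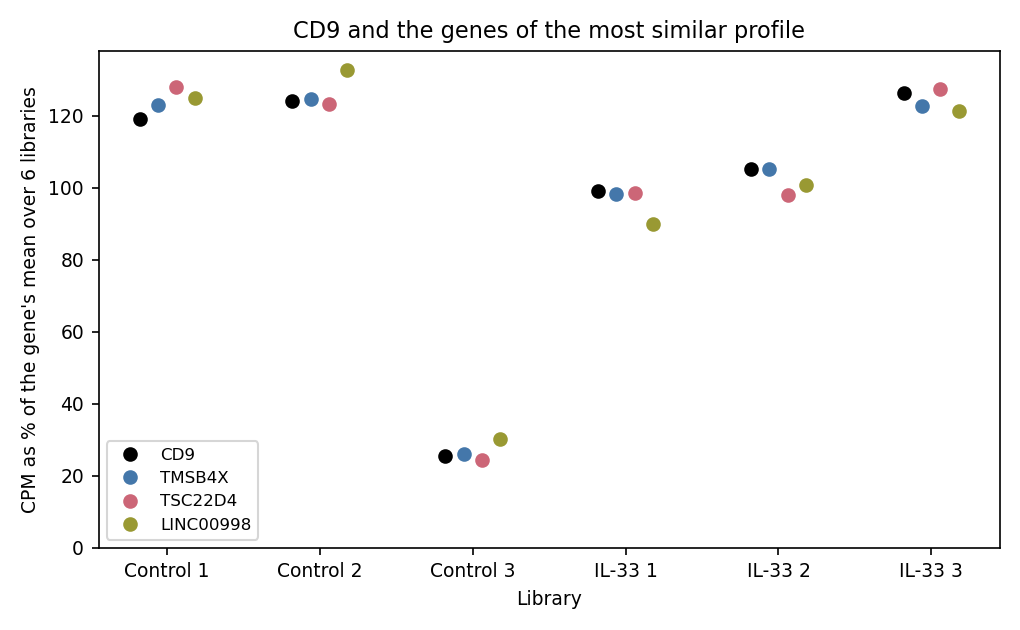
CPM of CD9 and of TMSB4X, TSC22D4 and LINC00998 in each library, as a percentage of the gene's mean over the 6 libraries (axis from 0). All 4 genes are lowest in Control 3, which the choice of genes by likeness to CD9 fixes, and in the other 5 libraries their points lie close together.

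Genes near CD9 on the chromosome differed in Control 3 in both directions. Within 500 kb of CD9 on chromosome 12 there were 11 other genes at 10 CPM or more, with a median difference between Control 3 and the other libraries of 0.00 and a range from -1.74 to 0.76. The lowest of them, COPS7A (6723741 to 6731875), a subunit gene of the COP9 signalosome, had 41.8 and 34.0 CPM in Controls 1 and 2, 10.7 CPM in Control 3 and 31.9, 35.1 and 39.7 CPM with IL-33. GAPDH and CHD4, which lie in the same window, had 0.18 and -0.02. COPS7A, GAPDH and CHD4 were picked after their values were seen. All 11 genes lie on the same side of CD9, from 6328757 to 6731875, and the part of position was not tested.

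Among the 8, CD151, TSPAN4 and CD81 had the most similar patterns. The distance was 0.04 between CD151 and TSPAN4, 0.04 between CD81 and TSPAN4 and 0.07 between CD81 and CD151, the smallest of the 28 pairs. These 3 genes lie near the same end of chromosome 11, where the 23 genes at 10 CPM or more within 500 kb of CD151 had a median difference of 0.22 in Control 3, beside 0.35 for CD151 and 0.31 for TSPAN4, whose window holds the same number of such genes with the same median. The 4 such genes around CD81 had 0.21. The median was 0.02 over all genes at 10 CPM or more. It was 0.18 over those at 56.7% GC or more, to which the 3 genes belong. The parts of position, GC content and transcript length were not tested. The 7 pairs with CD9 were the most unlike, with distances from 0.75 to 0.94. The genes closest to CD63 were RPS6 (0.02) and RPS20 (0.03), of the small ribosomal subunit, and POLE3 (0.02), a subunit of DNA polymerase epsilon, against a median of 0.19. RPS6, with 3472, 3513 and 3920.0 CPM in the Controls, against 3863, 3719 and 3346 CPM under IL-33, shared the high value of CD63 in Control 3 and its low value in IL-33 3.

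Of the 25 other tetraspanins of the human family, 14 could be tested and 0 passed in either direction. The log2 fold change was positive in 4 of the 14 and its median was -0.06, and without Control 3 it was positive in 7 of 15, with 0 passing. TSPAN5, which like TSPAN14 belongs to the TspanC8 group that escorts ADAM10 out of the endoplasmic reticulum, was the most abundant of them, with 141, 126 and 188 CPM in the Controls, against 153, 136 and 144 CPM under IL-33. Its log2 fold change was -0.06 ± 0.13, and 0.11 ± 0.10 without Control 3, where it was highest. The TspanC8 members TSPAN17 (39.1 ± 5.65 CPM, SD, n = 6) and TSPAN15 (22.6 ± 1.82 CPM) stood at log2 fold changes of -0.12 ± 0.17 and -0.09 ± 0.19 (0.04 and -0.14 without Control 3), while the client protease ADAM10 had 0.14 ± 0.16 (0.03 without Control 3). TSPAN6 had -0.06 ± 0.15, TSPAN9 -0.02 ± 0.22, TSPAN2 -0.12 ± 0.28 and TSPAN13 -0.06 ± 0.27. Without Control 3 these were -0.10, 0.22, -0.31 and -0.09, so that of TSPAN9 changed sign. TSPAN10, also of the TspanC8 group, was the single one of the 14 whose groups did not overlap, beside 8.06% of all genes tested, with 5.76, 7.57 and 6.33 CPM in the Controls, against 5.54, 3.71 and 3.77 CPM under IL-33, and it did not pass (log2 fold change -0.59 ± 0.38, and -0.61 ± 0.42 without Control 3). Without Control 3, 3 of 15 did not overlap (TSPAN10, CD37 and ROM1), beside 22.1% of all genes tested. These 3 are named after their values were seen. CD37, tested only without Control 3, had 0 counts in Controls 1 and 2, 6 in Control 3, and 1, 11 and 12 counts with IL-33. With Control 3 kept, its groups overlapped. Without that library, CD37 passed the count filter through the IL-33 libraries alone. Neither its separation nor its place among the 7 positive genes is therefore a result about IL-33. CD53, a tetraspanin of leukocytes and microglia, had 0 counts in all libraries, as did TSPAN7, TSPAN16 and TSPAN19, and at 3 counts the shallowest library would allow 0.523 per 1e6.

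Genes of known tetraspanin partners showed no change that passed the test. Of 16 listed, 14 were tested, 7 with a positive log2 fold change, the median was -0.01 and 0 passed in either direction, as without Control 3 (5 positive, median -0.05). The integrin genes ITGA3 and ITGB1, whose products bind CD151, were measured closely, at -0.04 ± 0.11 and -0.03 ± 0.10 (0.03 and -0.01 without Control 3). ITGA6 had 0.18 ± 0.23, and -0.06 without Control 3, where it had 13.9 CPM against 23.7 to 28.01 CPM elsewhere. ITGB4, with 11.7, 14.3 and 14.7 CPM in the Controls, against 7.89, 11.4 and 9.43 CPM under IL-33, had -0.49 ± 0.26, and -0.44 without Control 3. CLDN11, the claudin that TSPAN3 binds, had 31.3, 25.1 and 35.1 CPM in the Controls, against 25.04, 24.5 and 24.99 CPM under IL-33, and its log2 fold change was -0.29 ± 0.18, or -0.19 without Control 3. In ITGB4 and CLDN11 every IL-33 value lay below every Control value, as in 3.51% of all genes tested. Without Control 3, 3 of the 14 partners did not overlap, with CLDN1 as the third, beside the 22.1% of all genes. HBEGF, the growth factor precursor that CD9 associates with, had -0.20 ± 0.11, CLDN1 -0.21 ± 0.13, CD44 -0.06 ± 0.09, MMP14 0.05 ± 0.17 and PI4K2A 0.01 ± 0.14. Without Control 3 these 5 stood at -0.10, -0.27, -0.05, 0.22 and 0.07. The immunoglobulin protein PTGFRN, a direct partner of CD9 and CD81, had 0.19 ± 0.30, and -0.09 without Control 3. ZDHHC2, which palmitoylates CD9 and CD151, had 0.03 ± 0.28, and -0.24 without Control 3.

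Among genes of the machinery that forms and releases vesicles, none passed the test. Of 36 listed genes, 34 were tested and 0 passed in either direction. Of the 34, 12 had a positive log2 fold change, with -0.02 as the median, and 19 without Control 3, with 0.00. The 6 with the smallest p at 10 CPM or more included RAB35 (-0.23 ± 0.16) and RAB27A (0.25 ± 0.19), GTPases of exosome release. RAB27A had 22.1, 21.4 and 19.9 CPM in the Controls, against 24.2, 28.7 and 22.6 CPM under IL-33, the single gene of the list whose groups did not overlap, where every IL-33 value lay above every Control value in 4.54% of all genes tested. Without Control 3 the groups did not overlap in 5 of the 34 (SDCBP, VPS28, RAB27A, ANXA5 and MFGE8), beside 22.1% of all genes tested. The others were the ESCRT subunits CHMP4A (0.25 ± 0.24) and VPS28 (0.12 ± 0.13) and the annexins ANXA11 (-0.12 ± 0.11) and ANXA5 (-0.11 ± 0.12). Without Control 3 the log2 fold change was -0.26 for RAB35, 0.21 for RAB27A, 0.15 for CHMP4A, 0.26 for VPS28, -0.03 for ANXA11 and -0.24 for ANXA5, with an edgeR adjusted p of 0.497 for ANXA5, the lowest of the 6.

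Of 7 genes known from migrasomes, 7 were tested and 2 were above 0, with a median of -0.06 (4, with a median of 0.16, without Control 3), and those with the smallest p were PIP5K1A (-0.16 ± 0.13), SGMS2 (-0.29 ± 0.25) and PIGK (-0.22 ± 0.21), or -0.11, -0.45 and -0.34 without Control 3. The groups did not overlap in 0 of the 7, beside 8.06% of all genes tested. Without Control 3 they did not overlap in 3 of the 7 (ITGA5, PIGK and SGMS2), beside 22.1% of all genes tested. Of 5 subunits of AP-3, the adaptor that sorts CD63 to lysosomes, 4 were tested and 3 were above 0, with a median of 0.08, and AP3M1 had 0.22 ± 0.18, AP3S1 -0.13 ± 0.17 and AP3B1 0.11 ± 0.19, or 0.07, -0.11 and 0.06 without Control 3. In both lists 0 passed in either direction, with or without Control 3. All values of these lists are log2 fold changes of IL-33 over Control with their standard errors.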

How the data were processed

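The deposited values are raw counts, 1 table of whole numbers with a row per gene symbol and a column per library. Extraction with TRIZOL and the QuantSeq 3' FWD kit of Lexogen, which reads tags near the 3' end of polyadenylated transcripts and keeps their strand, are given per the labels' protocols. The submitters' processing notes list STAR 2.7.5a, HTSeq 0.6.1, edgeR and hg38 without saying what each did. The annotation, the strand setting and any filter of the authors' counting were not given in the sources used here.

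Of 27470 rows, 1 was empty and left out. The test was the robust quasi-likelihood test of edgeR 4.0.16 (R 4.3.3) after filterByExpr (count minimum 10, total minimum 15) and TMM scaling, with group alone and Benjamini-Hochberg adjustment at 0.05 over 12125 genes. DESeq2 1.42.0 and limma-voom (limma 3.58.1) were alternatives. The procedure was run on simulated counts without a library like Control 3, with added changes larger than those estimated for the tetraspanins. That run does not show how the test performs on changes as small as these. CPM used TMM-scaled library sizes, and log2 CPM a prior count of 2. Exact intervals and the limit of 3 counts cover counting error only, since PCR reads without molecular identifiers are not independent. Positions came from GENCODE release 29, and GC content and transcript length from 1 principal transcript a gene, for 96.5% of genes at 10 CPM or more. Replicate pairs differed by more than sampling noise (chi-square per degree of freedom from 5.63 to 16.9), so none were merged.

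The 8 genes and the lists were chosen with earlier results of these data known. All 8 are named, with every other tetraspanin and partner at 10 CPM or more, the 6 vesicle genes and the 3 migrasome and 3 AP-3 genes with the smallest p at that level, and the 3 genes closest in pattern to the most abundant and to the most variable of the 8. Others were named after their values were seen. Alternatives were other scalings, filters and tools, the replicate number as a block and each library left out.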

Additional observations from a re-analysis of the deposited data

How the results depend on the processing

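Of the 8 tetraspanins, 0 changed under every alternative run, also with each library left out. The count of all genes changed, 0, became 3 without the low-count filter and 1 with DESeq2 (KIRREL3-AS2). With a library left out it ran from 0 to 6, the 6 being without Control 3, where DESeq2 called 2 and limma-voom 15; these fits by other tools were chosen after seeing the data. The number of the 8 above 0, which was 2, became 1 with DESeq2's size factors, DESeq2, limma-voom and the replicate block, 3 with library size alone, 2 to 4 with a library left out, and 4 without Control 3 by each of the 3 tools. The difference in mean share between groups (IL-33 minus Control, in percentage points) also moved with a library left out. That of CD63, 0.57 with all libraries, ran from -0.72 to 2.16. It ran from -0.26 to 0.70 for CD9 and from -1.34 to 0.18 for CD151. Only the difference of TSPAN4 kept its sign in every such fit.

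Some log2 fold changes changed sign. That of CD63 was 0.0044 with library size alone. That of TSPAN14 was -0.0040 with DESeq2's size factors, -0.0045 with DESeq2, -0.0017 with the replicate block and -0.013 with limma-voom, and that of TSPAN9 was 0.046 with limma-voom and 0.00071 with the replicate block. Without Control 3, DESeq2 and limma-voom gave -0.14 and -0.16 for CD9, 0.063 and 0.062 for CD63, 0.089 and 0.086 for CD81, 0.044 and 0.035 for CD151, 0.031 and 0.022 for TSPAN4, -0.051 and -0.060 for TSPAN14, 0.11 and 0.11 for TSPAN5, 0.22 and 0.20 for TSPAN9, 0.044 and 0.039 for TSPAN17, -0.086 and -0.094 for PTGFRN, 0.029 and 0.019 for ITGA3, -0.057 and -0.049 for ITGA6 and -0.24 and -0.24 for ZDHHC2. With a library left out, the range was -0.14 to 0.56 for CD9, -0.061 to 0.063 for CD63, -0.12 to 0.089 for CD81, -0.086 to 0.083 for CD82, -0.17 to 0.045 for CD151, -0.17 to 0.032 for TSPAN4 and -0.080 to 0.046 for TSPAN14. It was -0.31 to 0.17 for TSPAN2, -0.18 to 0.11 for TSPAN5, -0.11 to 0.034 for TSPAN6, -0.19 to 0.22 for TSPAN9, -0.20 to 0.044 for TSPAN13 and -0.23 to 0.045 for TSPAN17. Among the partners it was -0.086 to 0.39 for PTGFRN, -0.11 to 0.033 for ITGA3, -0.056 to 0.36 for ITGA6, -0.089 to 0.042 for ITGB1, -0.083 to 0.22 for MMP14, -0.24 to 0.38 for ZDHHC2 and -0.090 to 0.073 for PI4K2A. In the vesicle and AP-3 lists it was -0.024 to 0.26 for VPS28, -0.27 to 0.012 for AP3S1 and -0.034 to 0.28 for AP3B1. The cause of these changes was not tested.

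Whether equal replicate numbers mark a pair is not stated in the labels. Deviations of same-numbered libraries correlated at -0.086, 0.027 and -0.136, so the numbers were not taken as pairs, and with the replicate block 0 genes changed and the log2 fold change of CD9 was 0.47. CD9 in Control 3 rests on 54 counts, and genes under 10 CPM such as TSPAN10 are limited by depth.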
